A study of Homo sapiens with 4 samples.

Results

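The 9 genes studied belong to families that handle carbon dioxide, bicarbonate and protons. All were followed in A549 cells, a human lung adenocarcinoma cell line, treated with embelin. They comprised the 6 carbonic anhydrase genes CA2, CA8, CA9, CA11, CA12 and CA13 and the 3 bicarbonate transporter genes SLC4A2, SLC4A4 and SLC4A7. They were chosen by name, as probes that carry the gene's name or the accession of one of its RefSeq transcripts, and 18 probes were found. Of these 9 genes, 8 were tested among 17649 genes or transcripts in all, and CA13 was not, as neither of its probes was well above background on both arrays of a group. RNA came from 2 untreated control samples and from 2 samples given embelin, a plant benzoquinone, at 15 µM, all collected at 4 h. All cells had been moved to medium with less serum before treatment, and the labels describe the controls as untreated and name no vehicle. Each sample was labelled with Cy3 and hybridized to 1 array, and the 4 arrays lay on 1 slide.

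Carbonic anhydrases are zinc enzymes that convert carbon dioxide and water to bicarbonate and a proton. CA2 and CA13 act in the cytosol, whereas CA9 and CA12 are anchored in the plasma membrane with the catalytic domain outside the cell. CA9 is a textbook target of the hypoxia-inducible transcription factors and is low in most normal tissues. CA8 and CA11 belong to the related proteins that lack a complete zinc site and have no enzymatic activity. SLC4 proteins carry bicarbonate across membranes: SLC4A2 (AE2) exchanges it for chloride, and SLC4A4 (NBCe1) and SLC4A7 (NBCn1) bring it into cells together with sodium.

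The sequences bearing on CA9, CA12 and SLC4A2 are shown first, as these genes had the largest change, the brightest probe and the most copies of the motif searched, respectively. The only CA9 probe on the array had 60 bases, 55% of them G or C.
CA9 probe: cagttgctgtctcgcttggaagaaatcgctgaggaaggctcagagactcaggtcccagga

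Promoter windows from RefSeq (GRCh38.p14), which run from 250 bases before to 50 bases after a transcription start, were at hand for 5 of the 9 genes. They were searched on both strands for ACGTG and GCGTG, the core letters of the hypoxia response element, and the overlapping strands of CACGTG count as separate matches. Capitals mark the matches in the bases before the start, each sequence running 5′ to 3′ on the strand of the gene. The CA9 bases are chr9:35673678-35673927 (plus strand), those of CA12 chr15:63381847-63382096 (minus strand), and those of SLC4A2 chr7:151062297-151062546 (plus strand), the window of this gene with the most matches.
CA9: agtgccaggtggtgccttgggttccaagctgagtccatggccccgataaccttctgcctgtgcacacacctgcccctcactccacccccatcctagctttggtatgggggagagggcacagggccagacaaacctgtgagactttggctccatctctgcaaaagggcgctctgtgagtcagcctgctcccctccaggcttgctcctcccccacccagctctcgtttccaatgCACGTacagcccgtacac
CA12: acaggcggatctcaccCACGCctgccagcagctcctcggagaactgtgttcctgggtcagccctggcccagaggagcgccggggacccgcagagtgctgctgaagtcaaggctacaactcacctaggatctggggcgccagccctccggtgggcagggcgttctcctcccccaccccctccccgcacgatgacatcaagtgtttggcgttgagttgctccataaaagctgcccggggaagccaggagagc
SLC4A2: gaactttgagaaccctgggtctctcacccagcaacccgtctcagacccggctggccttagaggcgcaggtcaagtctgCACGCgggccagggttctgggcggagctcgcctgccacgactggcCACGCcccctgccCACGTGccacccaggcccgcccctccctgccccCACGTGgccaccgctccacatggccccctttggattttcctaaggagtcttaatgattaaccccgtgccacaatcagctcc

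CA9 held 1 match, ACGTG on the opposite strand from base -18 to base -14 before the start. CA12 held 2, both GCGTG on the opposite strand, from -234 to -230 and, past the bases shown, from 40 to 44. The SLC4A2 window held 8 matches, of which the last, a CACGTG read on both strands from 28 to 33, lie past the bases shown. Each of the 4 windows of this gene, some of which overlap and share matches, held at least 1. Of the 5 windows of SLC4A4, 2 held a match, and of the 2 windows of SLC4A7, 1 did. Matches of this kind are common, as 48.4% of all 35116 windows held at least 1 and 10.1% held them at 3 or more positions. They are therefore given as a description and not as binding sites.

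The array data had the following properties. Of 50238 probes, 66.8% were well above background in control replicate 1 and 66.4% in embelin replicate 2, but 50.3% in control replicate 2 and 51.2% in embelin replicate 1, so that 1 array of each group measured fewer probes. On the slide, control took positions 4 and 1, and embelin took 2 and 3. All 10 markers of A549 and lung epithelium were well above background on the 4 arrays, KRT18, KRT8 and AKR1B10 among them, and none was called after adjustment. Of 10 markers of other cell types, 5 were tested, while PTPRC, PECAM1, VWF, COL3A1 and DCN were not kept, and DCN was not well above background on any array. The summed signal of all 10 on the linear scale was 2212 and 2672 in the controls and 3205 and 2835 with embelin, or 2129 and 2594 against 3017 and 2628 without COL1A1, the 1 marker past 2-fold with an unadjusted p under 0.05 (2.46-fold, limma adjusted p = 0.0547). CD68 and ACTA2 were the brightest of the 10 on each array and so weighed most in the sums. COL3A1 and PTPRC, each well above background on 1 array, had log2 signals of 8.857 and 7.575 on embelin replicate 1. On embelin replicate 2 they were at 2.865 and 1.63. The part of these markers in the results was not tested. Labels do not say whether replicates were separate cultures, so p-values measure only the spread between these samples, and with 2 arrays per group an exact permutation test cannot give a two-sided p below 0.333.

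CA9 was the gene of this group that changed most. Its normalized log2 signal was 6.99 and 7.21 without embelin, and it was 10.45 and 10.64 with it. Both embelin arrays lay far above both controls, and the 4 arrays were all well above background. The means were 7.10 ± 0.16 and 10.54 ± 0.13 (SD, n = 2 each), which is a change of 3.44 on the log2 scale (SE 0.19) or 10.9-fold. CA9 was called after adjustment over all genes (adjusted p = 0.0204 from limma), and the 95% interval of the log2 fold change ran from 2.93 to 3.95. Between the control and embelin arrays with more probes above background the difference was 3.65, and between those with fewer it was 3.24. With any 1 array left out the log2 fold change lay between 3.33 and 3.55, although limma then called 0 of all genes after adjustment and CA9 was no longer called (adjusted p between 0.0557 and 0.172). The same held with the methods' t-test (adjusted p = 0.157) and with dim probes left in the test (adjusted p = 0.327 from limma). It held too with the replicate number as a block (limma adjusted p = 0.067), with array position as a covariate (0.0898) and with array background as a block (0.182), all at the same log2 fold change of 3.44.

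CA12, the other membrane enzyme, had higher values with embelin at each of its 4 probes, none of which passed after adjustment. At the brightest probe the normalized log2 signal was 15.85 and 15.69 in the controls and 16.65 and 16.63 with embelin. The groups did not overlap, and the embelin arrays differed from each other by less than the controls did. Groups lay apart with embelin higher in 21.1% of the 17298 genes measured on all arrays. The change was 0.87 on the log2 scale (SE 0.17) or 1.83-fold, short of 2-fold, and it missed the adjusted threshold (limma adjusted p = 0.0959). Its 95% interval ran from 0.42 to 1.32. limma's trend and robust options gave a call (adjusted p = 0.0124).

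The other CA12 probes gave larger values. The second probe, for the same RefSeq transcript, went from 12.04 and 12.27 to 13.08 and 13.48 in normalized log2 signal, a log2 fold change of 1.13. The third, designed on a cDNA clone, went from 10.05 and 9.49 to 11.31 and 11.39, a log2 fold change of 1.58. The fourth, on the same clone, went from 5.76 and 6.02 to 6.97 and 7.28, a log2 fold change of 1.23, with 1 of the 2 control arrays well above background. At all 4 probes both embelin arrays were above both controls, the pattern that 21.1% of the genes measured on all arrays showed. The probes share the same RNA samples and are not replicates. When each kept probe was counted on its own their adjusted p from limma was between 0.0842 and 0.121. The mean over the probes gave a log2 fold change of 1.20 (limma adjusted p = 0.0719).

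The changes of these membrane enzymes were compared within each array. The log2 signal of CA9 minus that of the brightest CA12 probe was -8.86 and -8.48 in the controls and -6.20 and -5.99 with embelin. The values of the groups did not overlap, and CA9 gained 2.57 on this probe on the log2 scale. Against the other CA12 probes, from the brighter to the dimmer, the gain was 2.32, 1.86 and 2.21. For the brightest probe the exact permutation test gave p = 0.333 (two-sided), the smallest that 2 arrays against 2 allow.

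**Figure D1:**
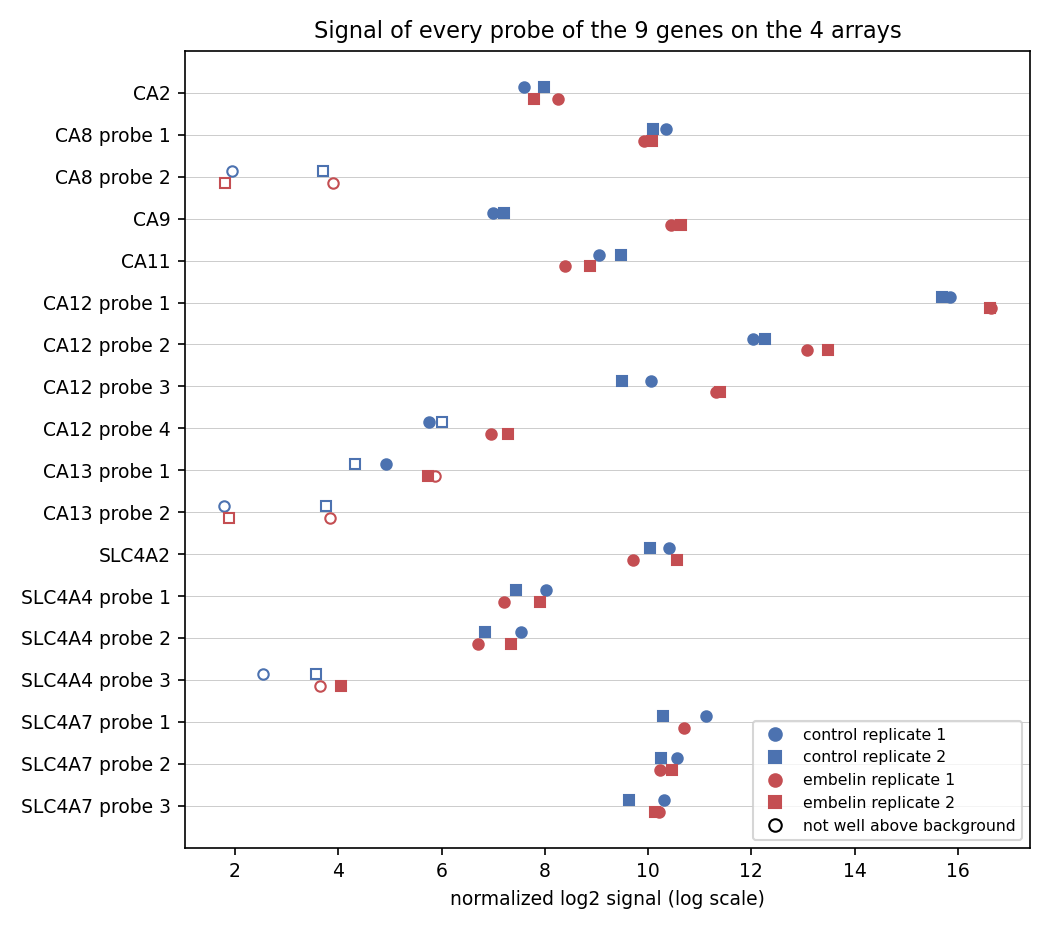
Normalized log2 signal (horizontal axis) of each of the 18 probes of the 9 genes on the 4 arrays, with probes of a gene numbered from the brightest, circles for replicate 1, squares for replicate 2 and open symbols where the probe was not well above background. The embelin arrays are to the right of both controls at CA9 and at all 4 CA12 probes, and the groups overlap at the kept SLC4 probes. They are also to the right at the brighter CA13 probe and the dimmest SLC4A4 probe, which were not kept. One SLC4A7 value was left out as an outlier spot.

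Of the cytosolic enzymes, CA2 was well above background on the 4 arrays and CA13 was near it. CA2, a highly active and widely expressed isoform, was at 7.59 and 7.98 in normalized log2 signal in the controls and at 8.25 and 7.79 with embelin. The groups overlapped, and the log2 fold change of 0.23 (SE 0.26, limma adjusted p = 0.686) had a 95% interval from -0.48 to 0.95. With 1 array left out it lay between 0.00 and 0.46, the lowest value being that without embelin replicate 1. CA13 had 2 probes. At the first, control replicate 1 (4.92) and embelin replicate 2 (5.74) were well above background, and control replicate 2 (4.32) and embelin replicate 1 (5.88) were not. Both embelin arrays were thus above both controls, but only 1 array per group measured the transcript, and the gene was not tested. With dim probes left in, its log2 difference of 1.18 passed 2-fold at an unadjusted limma p under 0.05, and it was not called after adjustment (limma adjusted p = 0.561). At the second probe no array was well above background, and no fold is given.

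The related proteins without enzymatic activity had both embelin arrays below both controls, and neither was called. Such a pattern was common, as 30.7% of the 17298 genes measured on all arrays showed it. CA11, found mainly in brain, was at 9.06 and 9.48 in normalized log2 signal in the controls and at 8.38 and 8.87 with embelin. The groups did not overlap, yet their gap was smaller than the distance between the embelin arrays. Its log2 fold change was -0.64 (SE 0.27, limma adjusted p = 0.311), with a 95% interval from -1.39 to 0.11, and it was -0.18 between the arrays with more probes above background and -1.10 between those with fewer. CA8, which binds the inositol trisphosphate receptor, was at 10.35 and 10.10 in the controls and at 9.92 and 10.07 with embelin at its brighter probe. These values nearly touched, and the log2 fold change was -0.23 (SE 0.19, limma adjusted p = 0.561). The other CA8 probe was not well above background on any array.

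None of the bicarbonate transporters differed by more than the spread of its arrays. SLC4A2 was at 10.40 and 10.04 in normalized log2 signal in the controls and at 9.70 and 10.57 with embelin. The embelin arrays enclosed the controls, and the log2 fold change was -0.08 (SE 0.36, limma adjusted p = 0.936) with a 95% interval from -1.07 to 0.91. With 1 array left out it lay between -0.51 and 0.36, so its sign rests on single arrays.

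SLC4A4 was at 8.02 and 7.45 in normalized log2 signal in the controls and at 7.21 and 7.91 with embelin at its brightest probe. The groups overlapped, with a log2 fold change of -0.17 (SE 0.35, limma adjusted p = 0.838). A further kept probe overlapped in the same way at a log2 fold change of -0.17, and in both probes control replicate 1 and embelin replicate 2, the arrays with more probes above background, were the brighter of their groups. The third SLC4A4 probe was well above background on 1 embelin array (4.05), and no fold is given for it. The sign was not fixed here either, as values with 1 array left out were between -0.53 and 0.18.

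SLC4A7 had 3 kept probes. At the brightest, the normalized log2 signal was 11.12 and 10.28 in the controls and 10.70 on embelin replicate 1. The spot on embelin replicate 2 was marked as an outlier by the scanner software and was dropped from the fit, so that the log2 fold change of 0.00 (SE 0.46, limma adjusted p = 0.999) rests on 1 embelin array, which lay between the controls. In the deposited table of probe values, which keeps this spot, the log2 fold change was 0.78 (adjusted p = 0.582 from limma). The other 2 probes, with all arrays measured, gave 0.20 and -0.06, and at both the groups overlapped. The 95% interval at the brightest probe, from -1.43 to 1.43, leaves room for a change of more than 2-fold either way.

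**Figure D2:**
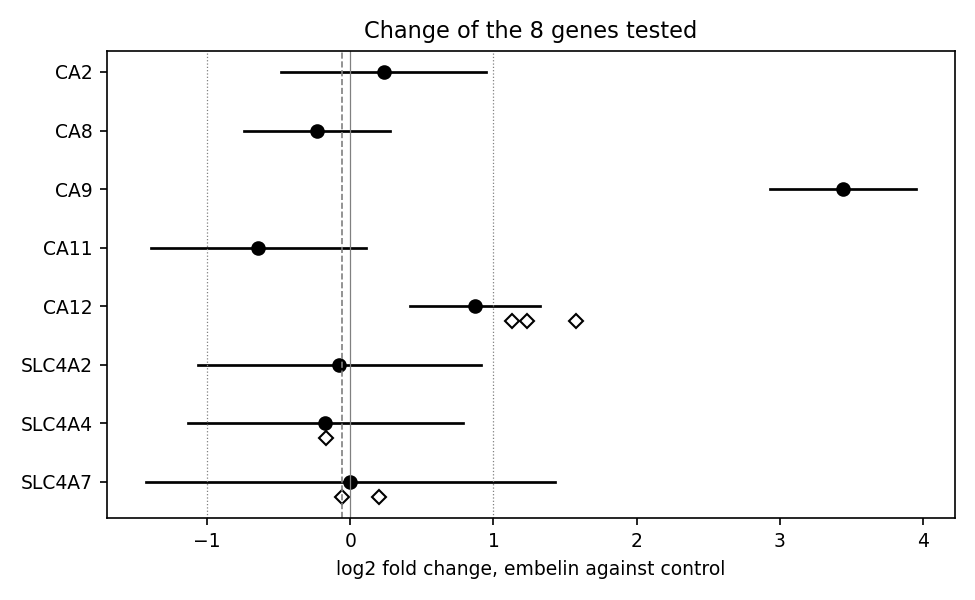
Log2 fold change of embelin against control (horizontal axis) for the 8 genes tested. Filled points are the probe that stands for the gene, with its 95% interval from limma, and open diamonds are further kept probes. The dashed line is the median of all genes tested (-0.06) and the dotted lines are 2-fold. The interval of CA9 lies between 2.93 and 3.95, that of CA12 between 0.42 and 1.32, and those of the other 6 genes cross 0.

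Counted together, 1 of the 8 genes tested, CA9, was higher after adjustment and 0 were lower, whereas over all 17649 genes 1.25% were called higher and 0.561% lower. At an unadjusted p under 0.05 limma found CA9 and CA12, both higher, and none lower, beside 8.36% of all genes higher and 11.1% lower. At 2-fold or more with an unadjusted limma p under 0.05, CA9 alone was counted as higher and none as lower, against 4.27% and 3.99% of all genes. With the methods' t-test in place of limma CA9 was again the 1 gene counted, against 3.05% higher and 2.73% lower of 17298 genes. These counts take the brightest probe of CA12, at 1.83-fold, whereas its other 3 probes and the mean over its probes passed this threshold with limma. Groups did not overlap in 4 of the 7 genes measured on all arrays, with embelin higher in 2 (CA9 and CA12) and lower in 2 (CA8 and CA11). Over the 17298 genes measured on the 4 arrays this was so for 21.1% with embelin higher and for 30.7% with embelin lower. The median log2 fold change of the 8 genes was -0.04, close to the -0.06 of all genes tested, and with 8 genes these shares are a description only.

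Other genes of pH control were examined as 8 lists written by hand, with 85 genes of which 49 were tested. No gene of these lists was called by limma after adjustment, and at an unadjusted p under 0.05, 4 were higher and 3 lower, against the 8.36% and 11.1% of all genes given above. The methods' t-test called 0 after adjustment and limma with trend and robust options called 2, OXSR1 and SLC16A3. Of the other carbonic anhydrases, CA14 and CA5B were tested out of 9, and of the other SLC4 genes, SLC4A3 and SLC4A11 out of 7, and none of these 4 passed after adjustment or at 2-fold. SLC4A11, a transporter of the corneal endothelium, was at 11.35 and 11.30 in normalized log2 signal in the controls and at 10.65 and 10.73 with embelin. The groups lay apart at -0.64 (SE 0.16, limma adjusted p = 0.147), and 30.7% of the 17298 genes measured on all arrays were apart in this direction. Among 21 subunits and accessory proteins of the vacuolar proton ATPase, which acidifies lysosomes, the log2 fold changes lay between -0.74 and 0.61 with a median of -0.04. The 8 sodium-proton exchanger genes and partners tested had a median log2 fold change of -0.27. The 6 anion exchangers of the SLC26 group lay between -0.70 and 0.12, and the 2 acid sensors tested were at -0.43 and -0.52.

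Of the 49 genes, 1 was at least 2-fold higher with an unadjusted limma p under 0.05 and 0 were lower, against 4.27% and 3.99% of all genes. OXSR1, a kinase that acts with WNK kinases on ion transporters, went from 11.94 and 11.57 in normalized log2 signal to 12.72 and 12.91, a log2 fold change of 1.06 (SE 0.21, limma adjusted p = 0.106). The groups did not overlap, but OXSR1 no longer passed with normexp, with the mean over probes, without control replicate 2 or without embelin replicate 2. SLC16A3 (MCT4), which exports lactate with a proton and is named with its values known, went from 16.37 and 16.10 to 17.20 and 17.23, a log2 fold change of 0.98 (SE 0.18, limma adjusted p = 0.0927). Here too the groups lay apart, and 21.1% of the 17298 genes measured on all arrays were apart in this direction. SLC16A1 (MCT1) was at 0.73, and BSG (basigin), the chaperone of both transporters, at 0.04.

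CA9 was also set beside 12 genes known to be induced by hypoxia that have other functions. In this list 10 of 12 were called higher by limma after adjustment and 0 lower, against 1.25% and 0.561% of all genes tested. The median log2 fold change was 2.68, against -0.06 over all genes tested. NDRG1 had the largest log2 fold change, 4.69 (SE 0.18), followed by ANKRD37 at 4.10, PFKFB4 at 3.64 and VEGFA, which encodes the angiogenic growth factor, at 3.63. The 3.44 of CA9 lay within the range of this list, whose lowest value was 0.39 for LDHA. At the brightest CA12 probe the 0.87 lay between LDHA and the next value, 1.43 for P4HA1. For P4HA1, 1 embelin spot was dropped as an outlier. The other CA12 probes were at 1.13, 1.58 and 1.23, of which the 1.58 lay above P4HA1. With the methods' t-test, or with array position or array background in the limma fit, no gene on the array was called after adjustment. The genes of this list were chosen with results of these data known, so the count is a description.

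**Figure D3:**
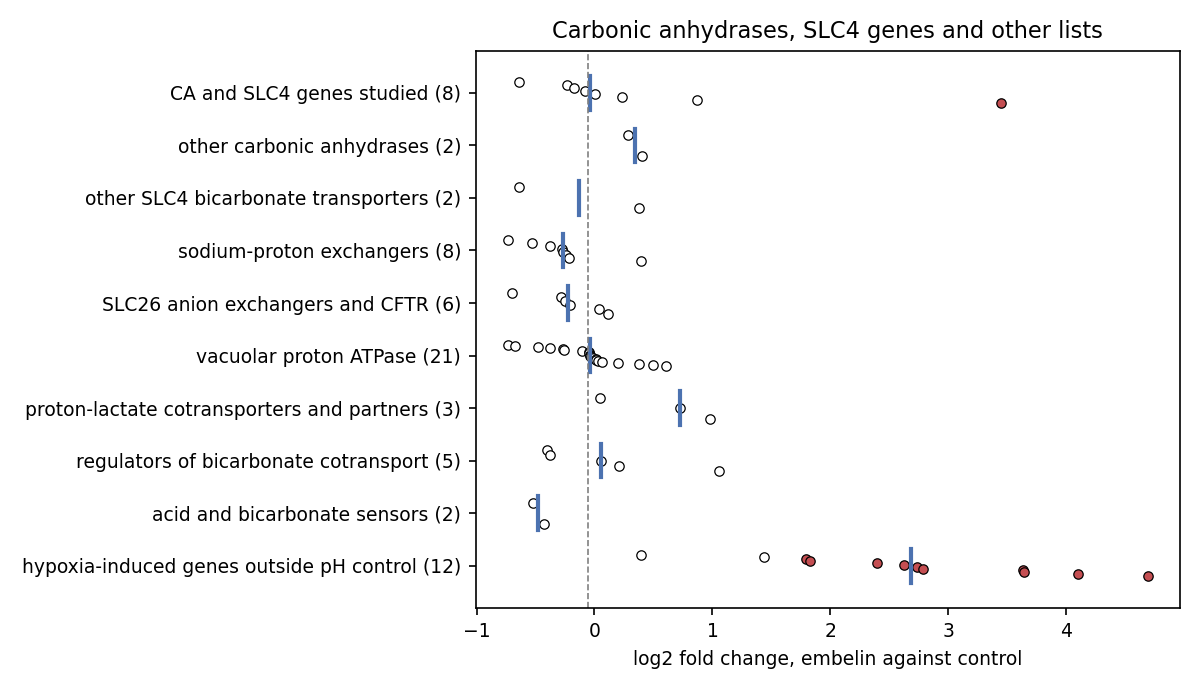
Log2 fold change of embelin against control (horizontal axis) for each tested gene of the group studied, of the 8 other lists of pH control and of the 12 hypoxia-induced genes, with the number tested in brackets. Filled points were called by limma after adjustment, short vertical bars are list medians and the dashed line is the median of all genes tested. CA9 is the filled point of the top row and 10 points of the hypoxia list are filled, while no point of the other pH lists is.

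**Figure D4:**
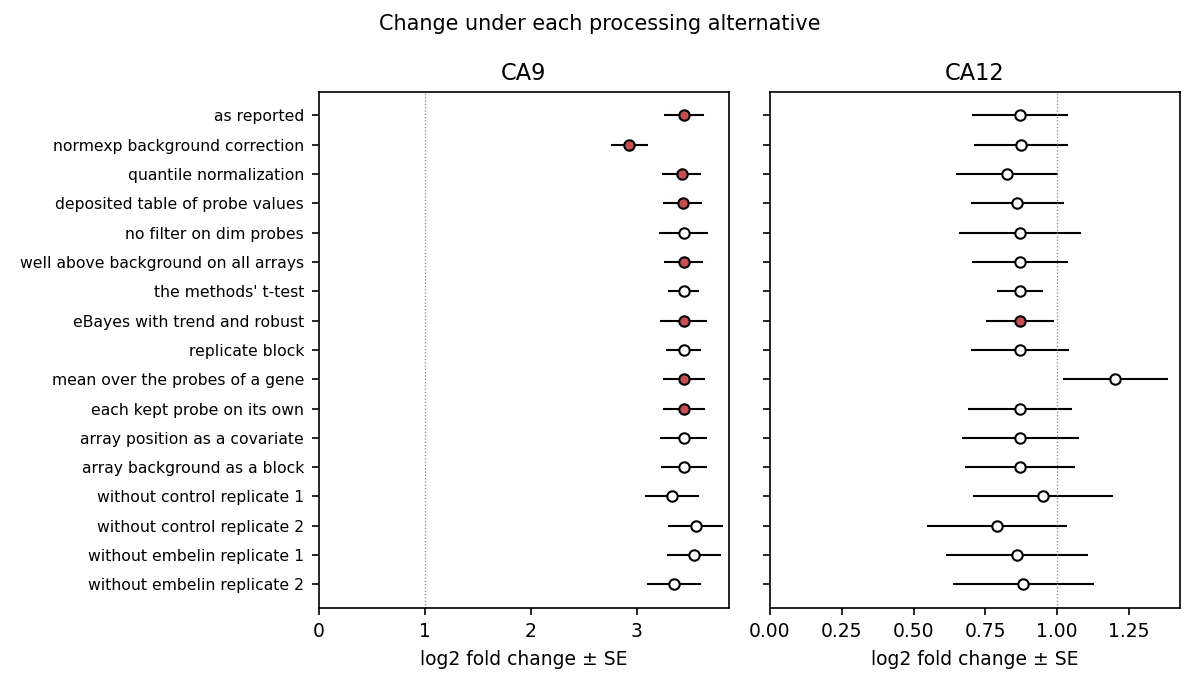
Log2 fold change of CA9 and CA12 (horizontal axes, with different ranges) under the reported processing and each alternative, with bars of 1 standard error and filled points where the adjusted p was under 0.05. CA9 stays between 2.93 and 3.55 and is filled in 8 of the 17 fits, and CA12 stays between 0.79 and 1.20 and is filled in 1.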

How the data were processed

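Intensities deposited by the authors came from Agilent Feature Extraction 10.7.3.1, per the file headers. That software had removed background, corrected trends within arrays and replaced weak values by surrogates, and no normalization between arrays had been applied. Here the 75th percentile of each array was set to a common value, as the study's methods name. Values under 1 were raised to 1 and log2 was taken, without outlier spots. Of 50238 probes, 26146 were kept because both arrays of a group, or of both, were well above background, and the kept probe with the highest mean log2 signal stood for its gene. Names came from RefSeq's gene table by accession (28595 probes), from a probe with the same name (2341) or from the files (19302). Groups came from the sample labels. limma 3.58.1 (lmFit, eBayes) in R 4.3.3 gave each change, with Benjamini-Hochberg adjustment over 17649 genes and a threshold of 0.05. The fit was also run on simulated data, with independent values and a spread taken from the fit itself. As these held no effect of array background or position, they cannot show how the calls fare under such effects. Genes and lists were chosen with earlier results of these data known. All 9 genes were named, and from each other list at most the 4 largest changes with an adjusted call, or else past 2-fold at an unadjusted p under 0.05. CA14, CA5B, SLC4A3, SLC4A11, SLC16A1, SLC16A3, BSG, P4HA1, LDHA and the markers fall outside this rule and were chosen with their values in view. Alternatives were normexp (offset 50), quantile normalization, the deposited table, other filters, tests, covariates and probe rules, and each array left out. A block for array background was added after seeing the data. The number of arrays limits the precision.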

Additional observations from a re-analysis of the deposited data

How the results depend on the processing

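Among 16 alternatives the log2 fold changes of CA9, CA12, CA2, CA8 and CA11 kept their sign (CA2 at 0.00 without embelin replicate 1), whereas SLC4A2 and SLC4A4 kept it in 14 each and SLC4A7 in 10 of the 14 that gave it a value. CA9 kept its adjusted call in 7 of 16, and CA12 gained one under trend and robust. Genes called after adjustment, 221 higher and 99 lower as reported, numbered 422 and 277 with normexp, 144 and 36 with quantile normalization, 126 and 33 with the deposited table, 419 and 345 when all arrays had to be well above background, 566 and 495 with trend and robust, 162 and 56 with the mean over probes and 217 and 65 with each probe on its own. They numbered 0 and 0, and 0 of the 9 genes studied, without a filter on dim probes, with the methods' t-test, with array position, with the background block, and with any 1 array left out. The replicate numbers pair no samples by the labels, and deviations of same-numbered arrays correlated at 0.175. The replicate block also gave 0 and 0 over all genes and 0 of the genes studied, with CA9 at 3.44 (limma adjusted p = 0.067). Trend and robust called 2 of the genes studied and 2 other pH genes. By 2-fold with an unadjusted p under 0.05, all genes numbered 368 lower with normexp, 1198 higher with each probe on its own, and 672 to 1147 higher and 582 to 1120 lower with 1 array left out. The genes studied then numbered 2, with CA13 added without a filter and CA12 with the mean over probes and with each probe on its own. The other pH genes then numbered 0 with normexp and with the mean over probes, 2 without a filter, and 0 to 3 with 1 array left out. The causes were not tested. The median over all genes moved by at most 0.085 on the log2 scale.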
